A study of Mus musculus with 12 samples.

Results

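Islets of Wfs1KO and wild-type (WT) mice were compared across the transcriptome, to learn which transcripts differ in islets without intact WFS1, with 8 of the 12 sequenced samples chosen by their genotype labels, 4 animals of each genotype. Genes counted as expressed when their RPKM averaged 1 or more across the 12 samples, which held for 13357 of the 24078 entries of the table. RPKM are reads scaled to transcript length and to the number of mapped reads, and all comparisons were made on log2(RPKM + 0.1). A log2 fold change is the Wfs1KO mean minus the WT mean on that scale, which understates the change of genes with low values. Wfs1KO mice were homozygous for Wfs1tm1Koks, an allele in which a LacZ cassette takes the place of most of exon 8, so that a shortened WFS1 joined to LacZ may still be made, and WT mice carried no copy of it. The allele is present in every tissue and not in beta cells alone. All animals were male F2 hybrids of 129S6/SvEvTac and C57BL/6 aged 5 to 6 months, and their islets were freed with collagenase and picked by hand into high-glucose culture medium. The paper gives an overnight culture ahead of its insulin secretion assay and does not state whether the islets used for RNA had it. Heterozygous mice (Wfs1HZ) entered only the mean used to choose genes.

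WFS1 is a membrane protein of the endoplasmic reticulum (ER), and its loss in people causes Wolfram syndrome, in which beta cells fail and diabetes begins early in life. In beta cells the ER folds very large amounts of proinsulin, and WFS1 has been tied to the unfolded protein response, to ER calcium and to the maturation of secretory granules. The unfolded protein response raises chaperones, the machinery that removes misfolded proteins, and the enzymes that move, glycosylate and export new secretory proteins.

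The 8 libraries were not alike in cell content. Glucagon (Gcg) had 59439.7, 182240, 109573 and 73228 RPKM in the WT and 50073, 76653, 52639.9 and 217165 RPKM in the Wfs1KO animals, with replicates in numerical order here and in all lists of values that follow. Insulin 2 (Ins2) had 67080.1, 15292, 23011 and 76687 RPKM in WT and 33525, 24433, 14220.3 and 9199 RPKM in Wfs1KO islets. Ins1, a near-identical copy whose reads may be hard to separate from those of Ins2, had 57662, 13076, 23203 and 91587 RPKM in WT and 48928, 42367, 18519.6 and 9816 RPKM in Wfs1KO islets. The hormone genes of islets were thus abundant in every library, with Sst between 1716 and 5030 RPKM and Ppy between 2557 and 18204 RPKM. Digestive enzyme transcripts of acinar cells were abundant as well, and the sum of 33 acinar genes was 80886, 65479, 144767 and 137573 RPKM in WT and 105521, 87962, 344335 and 11579 RPKM in Wfs1KO islets. Wfs1KO replicate 4 stood apart from the other 7 libraries. It had the most Gcg, the fewest Ins1 and Ins2 transcripts and the lowest acinar sum, its median Spearman correlation with the other libraries was the lowest (0.885), and it lay at one end of the first principal component, which held 29.9% of the variance. Results that rest on it are therefore given with and without it. In bulk islet RNA, fewer cells of a type and less RNA per cell cannot be told apart. The depth of the values, estimated from the steps between the RPKM of short RNA genes, was 2866000 to 8837000 reads in WT and 3248000 to 9459000 reads in Wfs1KO libraries, so that 3 reads on a transcript of 2 kb stood for 0.159 to 0.523 RPKM (counting error only).

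**Figure D1:**
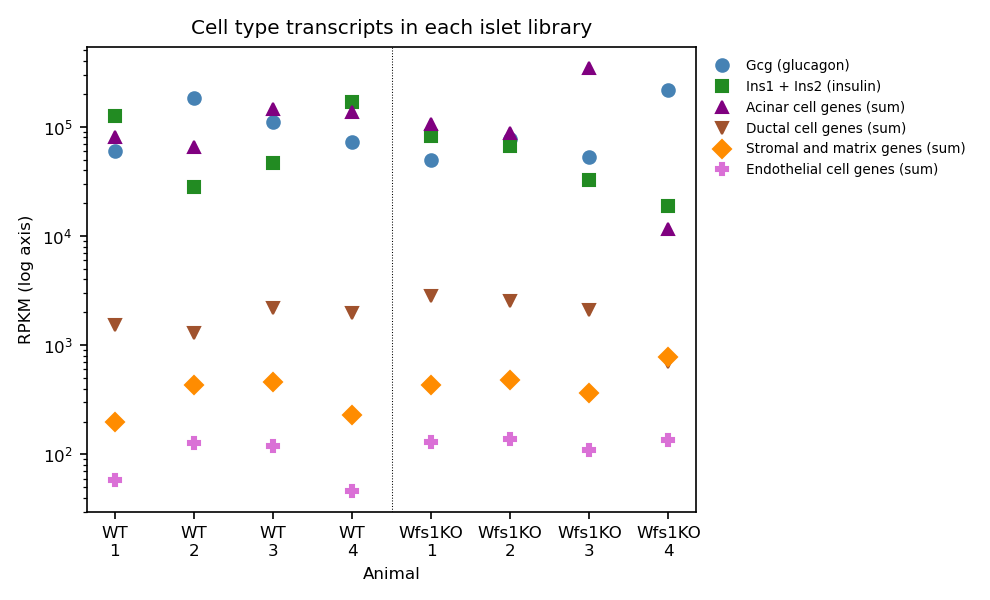
RPKM of Gcg and of Ins1 and Ins2 together, and summed RPKM of acinar, ductal, stromal and endothelial genes, in each WT and Wfs1KO library on a log axis. Wfs1KO 4 has the highest Gcg and the lowest acinar sum of the 8 libraries, and WT 2 is nearest to it in Gcg and insulin.

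Wfs1 itself (chromosome 5, 36966104 to 36989205, minus strand, GRCm38, as for all positions of genes) checked the labels. It had 33.9, 27.4, 24.9 and 28.4 RPKM in the WT and 5.08, 6.61, 3.46 and 2.45 RPKM in the Wfs1KO animals, and the groups did not overlap. Wfs1 fell by 2.76 on the log2 scale (standard error, SE, 0.29, adjusted p = 0.0109 from limma with Benjamini-Hochberg adjustment over all genes tested). The adjusted p was 0.0631 without WT replicate 1 and 0.0634 without Wfs1KO replicate 3. The RPKM covers the whole gene, including the exons before the cassette.

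Over all 13357 genes 3 had an adjusted p under 0.05 from limma (0.0225% of genes tested), 1 higher (0.00749%) and 2 lower (0.015%). An adjusted p under 0.2 was reached by 15 genes (0.112%), 7 higher (0.0524%) and 8 lower (0.0599%) in Wfs1KO. The other calls at 0.05 were small nucleolar RNA genes that rest on at most 3.36 approximate reads in any library. Snord52 (chromosome 17, 34950952 to 34951017) had 5.84, 1.91, 5.86 and 2.67 RPKM in WT animals and was listed at 0 in all 4 Wfs1KO animals. Snord82 (chromosome 1, 86356261 to 86356330) was listed at 0 in all 4 WT animals and had 1.54, 7.21, 3.67 and 4.49 RPKM in Wfs1KO animals. The remaining 12 genes with an adjusted p under 0.2 were Cpb2, Derl3, Fkbp11, Glipr2, Apoe and Olfr769, all higher in Wfs1KO islets, and Spock1, Trpm5, Gad1, Ppp1r1a, Trf and Maob, all lower. Olfr769 passed the filter through the heterozygous animals, with means of 0.03 RPKM in WT, 1.59 RPKM in Wfs1KO and 3.91 RPKM in Wfs1HZ islets. An unadjusted p under 0.05 was reached by 723 genes (5.41%), 473 higher (3.54%) and 250 lower (1.87%) in Wfs1KO, while the median log2 fold change of all genes was 0.03. After median-of-ratios scaling the same split was 498 higher and 527 lower, and after quantile normalization it was 462 and 564. The animals did not overlap for 373 genes (2.79%), 210 higher (1.57%) and 163 lower (1.22%), and where single genes are said not to overlap below, this describes the animals and is no test. In all, 7228 genes were higher in Wfs1KO and 6129 lower, whatever their p (54.1% higher). Single animals decided these counts: the number with an adjusted p under 0.05 was 33 without Wfs1KO replicate 4 and 0 without Wfs1KO replicate 3 or without WT replicate 1. The number with an adjusted p under 0.2 was 195 (1.46%) without Wfs1KO replicate 4 and 2 to 7 without any other single animal. Without Wfs1KO replicate 4 an unadjusted p under 0.05 was reached by 724 higher (5.42%) and 626 lower genes (4.69%), 10.1% in all. The higher count was 242 without Wfs1KO replicate 1, and the lower count 158 without WT replicate 1 and 159 without Wfs1KO replicate 3.

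**Figure D2:**
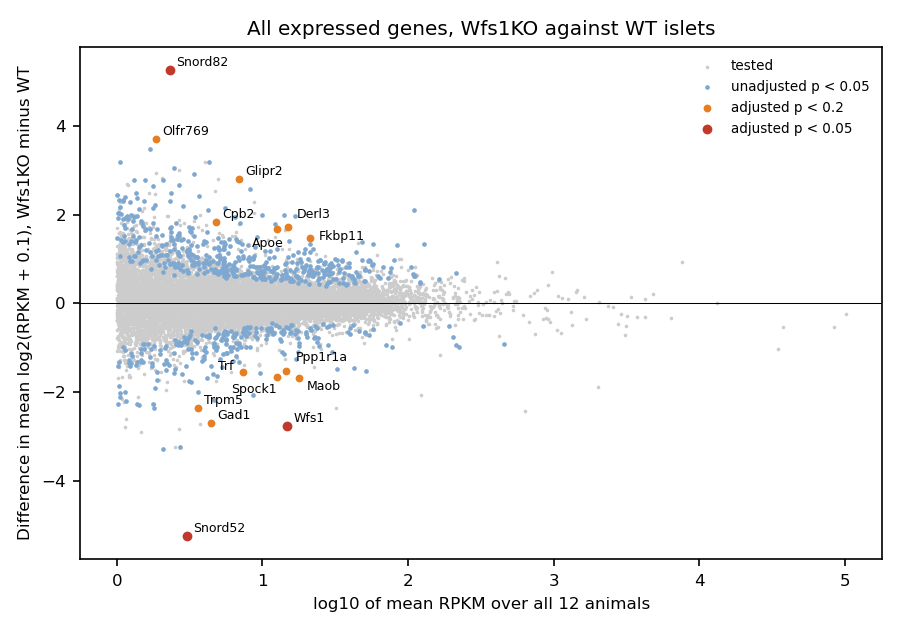
Difference in mean log2(RPKM + 0.1) between Wfs1KO and WT islets (vertical) against log10 of the mean RPKM over 12 animals (horizontal) for 13357 genes, with 15 genes at an adjusted p under 0.2 named. Wfs1 lies well below genes of similar level, whereas Snord52 and Snord82 lie at a low mean level.

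Genes of protein folding in the ER were mostly higher in Wfs1KO islets. Of 31 chaperones and folding enzymes 26 were higher and 5 lower, with a median log2 fold change of 0.37 beside 0.03 for all genes, and 9 higher and 1 lower had an unadjusted p under 0.05. One of them, Fkbp11, had an adjusted p under 0.2. After median-of-ratios scaling 5 higher and 1 lower members had an unadjusted p under 0.05 and 0 an adjusted p under 0.2 by limma. The list was described by such counts and was not tested as a set, which holds for every list that follows. Of all genes tested, 3.54% were higher and 1.87% lower at an unadjusted p under 0.05, shares to be set beside each such count. Whatever their p, 54.1% of all genes were higher. Fkbp11 (chromosome 15, 98724366 to 98728198), a peptidyl-prolyl isomerase of secretory cells, had 12.2, 11.1, 12.6 and 14.2 RPKM in the WT and 53.9, 43.02, 26.6 and 24.3 RPKM in the Wfs1KO animals. The lowest Wfs1KO value was above the highest WT value, with a log2 fold change of 1.48 (SE 0.26, adjusted p = 0.164). Sdf2l1, a partner of the chaperone BiP, had 42.1, 20.5, 42.1 and 40.6 RPKM in WT and 99.5, 86, 54.4 and 46.8 RPKM in Wfs1KO islets, a log2 fold change of 0.97 (adjusted p = 0.825) without overlap. Pdia6, a protein disulfide isomerase, had 88.4, 63.7, 89.6 and 80.5 RPKM in WT and 183, 172, 114 and 112 RPKM in Wfs1KO islets. This gave a log2 fold change of 0.82 (adjusted p = 0.767), again without overlap, and Wfs1KO replicates 1 and 2 had the highest values. Manf, which encodes a secreted ER stress protein, had 41.1, 32.03, 44.1 and 29.3 RPKM in WT and 74.3, 59.6, 51.1 and 37.3 RPKM in Wfs1KO islets, with overlapping groups and a log2 fold change of 0.58 (adjusted p = 0.901). Hspa5, which encodes BiP itself, overlapped between the genotypes with 1181 RPKM in WT replicate 3, and its log2 fold change was 0.71 (adjusted p = 0.901). By edgeR the study found no significant change in its ER stress markers Atf6, Ern1, Xbp1, Eif2ak3, Atf4, Ddit3 and Hspa5. Ero1lb was lower in Wfs1KO islets. This oxidase, which supplies disulfide bonds and is enriched in beta cells, had 34.5, 15.6, 38.7 and 33.1 RPKM in WT and 15.1, 22.9, 15.5 and 11.5 RPKM in Wfs1KO islets, a log2 fold change of -0.87 (adjusted p = 0.87).

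The promoters of several of these genes hold the ER stress response element, the sequence to which ATF6 binds together with NF-Y. The letters CCAAT, any 9 bases and CCACG were searched on both strands from 250 bases before to 50 bases after the start of each gene in RefSeq promoters. They were found in 37 of 27025 genes (0.137%), in 7 of the 24 chaperones and folding enzymes with a promoter in that table, in 2 of 17 genes of ER-associated degradation and in 0 of 31 genes of translocation and export. Of 9418 tested genes with a promoter 14 held the element. Windows of 35 bases are shown for genes that differ in their response, read along the strand of the gene on GRCm38.p6, with the element in capitals. Where it lies on the opposite strand the capitals begin with CGTGG.
Derl3 (chr10:75893234-75893268, plus strand): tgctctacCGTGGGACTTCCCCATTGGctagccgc
Pdia6 (chr12:17266483-17266517, plus strand): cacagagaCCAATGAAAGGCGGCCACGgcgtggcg
Creld2 (chr15:88819512-88819546, plus strand): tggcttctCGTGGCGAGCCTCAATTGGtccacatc
Hspa5 (chr2:34772017-34772051, plus strand): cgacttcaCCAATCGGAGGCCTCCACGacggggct
Canx (chr11:50325792-50325826, minus strand): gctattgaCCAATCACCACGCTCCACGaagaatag
Among the 14 genes 11 were higher in Wfs1KO islets, beside 54.1% of all genes, with a median log2 fold change of 0.41. The 7 chaperones and 2 degradation genes among them were all higher and are also counted in their own lists. Outside those lists Hnrnpa3 and Pan2 were higher, at 0.15 and 0.41. Spats2l, Adcy3 and Alg12 were lower, at -0.29, -0.94 and -0.02. Of the 14, the 3 with an unadjusted p under 0.05, which 5.41% of all genes reached, were Derl3, Pdia6 and Creld2. Creld2, a chaperone-like ER protein, had 31.9, 29.4, 46.4 and 35.1 RPKM in WT and 53.2, 51.5, 38.9 and 66.2 RPKM in Wfs1KO islets, a log2 fold change of 0.55 (adjusted p = 0.901). Canx, the lectin chaperone calnexin, carries the same letters and had 226, 147, 188 and 139 RPKM in WT and 243, 210.2, 159 and 150.1 RPKM in Wfs1KO islets, a log2 fold change of 0.12 (adjusted p = 0.983) with wide overlap. A match describes the letters of the window and is no evidence of binding.

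Of 23 genes of ER-associated degradation, by which misfolded proteins are drawn out of the ER and destroyed, 22 were higher and 1 lower, with a median log2 fold change of 0.22. At an unadjusted p under 0.05 stood 3 of them, all higher, beside 3.54% of all genes, and 1, Derl3, had an adjusted p under 0.2. After median-of-ratios scaling these counts were 4 and 0 by limma. Derl3 (chromosome 10, 75893413 to 75895941), a derlin of secretory cells, had 4.42, 7.25, 8.69 and 10.4 RPKM in the WT and 26.8, 28.96, 25.8 and 17.9 RPKM in the Wfs1KO animals. Every Wfs1KO animal was above every WT animal, with a log2 fold change of 1.72 (SE 0.28, adjusted p = 0.108). Edem2, a mannosidase-like protein that marks glycoproteins for degradation, had 14.3, 11.2, 11.9 and 10.6 RPKM in WT and 30.99, 24.1, 16.3 and 13.97 RPKM in Wfs1KO islets, where Wfs1KO replicate 4 alone lay within the WT range. Ube2g2, a ubiquitin-conjugating enzyme, had 32.3, 30.8, 35.1 and 26.01 RPKM in WT and 45.8, 40.8, 39.4 and 39.6 RPKM in Wfs1KO islets without overlap. Their log2 fold changes were 0.76 and 0.42 with adjusted p of 0.87 and 0.901. Among 39 genes that bring proteins into the ER, add sugars and load COPII vesicles 35 were higher and 4 lower, with a median of 0.32, and 7 had an unadjusted p under 0.05, all of them higher. Mcfd2, a cargo receptor subunit, had 26.3, 26.97, 26.9 and 20.1 RPKM in WT and 51.5, 46.6, 38.4 and 30.6 RPKM in Wfs1KO islets, a log2 fold change of 0.72 (adjusted p = 0.811). Kdelr3, which returns escaped chaperones to the ER, had 8.09, 6.21, 7.48 and 8.02 RPKM in WT and 11.6, 11.8, 10.6 and 14.1 RPKM in Wfs1KO islets, a log2 fold change of 0.68 (adjusted p = 0.811). Ssr3, a subunit of the translocon-associated complex, had 102, 85.3, 104 and 97.6 RPKM in WT and 191, 201, 118 and 108 RPKM in Wfs1KO islets. For all 3 genes the animals did not overlap. In each of these ER lists Wfs1KO replicates 1 and 2 had the highest mean log2 levels of the 8 animals, while replicates 3 and 4 lay within the WT range. Without Wfs1KO replicate 4 the medians were 0.43, 0.28 and 0.36. Of 32 targets of the integrated stress response, to which PERK and ATF4 belong, 19 were higher and 13 lower, with a median of 0.10. This was 59.4% higher, beside 54.1% of all genes. Only 1 gene, Ddit4, had an unadjusted p under 0.05, which 5.41% of all genes reached. Bhlha15 (MIST1), an acinar transcription factor that drives secretory capacity, had 5.82, 4.15, 6.23 and 7.45 RPKM in WT and 13.4, 14.4, 9.54 and 5.26 RPKM in Wfs1KO islets. With the mean level of acinar genes as a covariate, a fit chosen after the data were seen, the medians of the 3 ER lists were 0.39, 0.20 and 0.33.

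Most genes of cholesterol synthesis and of the ribosome had higher means in Wfs1KO islets, without a member at an adjusted p under 0.2. Of 26 genes of cholesterol synthesis and its control 24 were higher, with a median log2 fold change of 0.62, and 10 had an unadjusted p under 0.05, all higher. The mean log2 level of the list, relative to the WT mean, was 1.07 and 0.81 in Wfs1KO replicates 1 and 2, above every WT animal, and 0.19 and 0.20 in replicates 3 and 4, below WT replicate 1 (0.49). Lss, the lanosterol synthase, had 14.1, 11, 12.7 and 13.8 RPKM in WT and 32.9, 40.9, 18.7 and 17.6 RPKM in Wfs1KO islets. The groups did not overlap and the log2 fold change was 1.002 (adjusted p = 0.754). Hmgcs1, which makes HMG-CoA, had 27.4, 18.5, 17.7 and 23.4 RPKM in WT and 48.1, 40.1, 29.9 and 28.7 RPKM in Wfs1KO islets, a log2 fold change of 0.74 (adjusted p = 0.811) without overlap. Insig1, a sterol sensor partner, had 32.2, 16.2, 24.8 and 29.2 RPKM in WT and 72.4, 64.6, 39.6 and 28.9 RPKM in Wfs1KO islets. Wfs1KO replicate 4 lay within the WT range and the other Wfs1KO animals above it. Ribosomal protein genes differed by less but nearly all in one direction, with 77 of 79 higher, a median of 0.39 and 10 at an unadjusted p under 0.05. Rps26 had 59, 42.4, 19.1 and 35.2 RPKM in WT and 75.1, 56.95, 59.5 and 93.5 RPKM in Wfs1KO islets. WT animals also differed among themselves in this list. The mean log2 level was 0.41 and 0.22 relative to the WT mean in WT replicates 1 and 2 and -0.33 and -0.30 in WT replicates 3 and 4, against 0.83, 0.17, 0.05 and 0.70 in the Wfs1KO replicates.

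**Figure D3:**
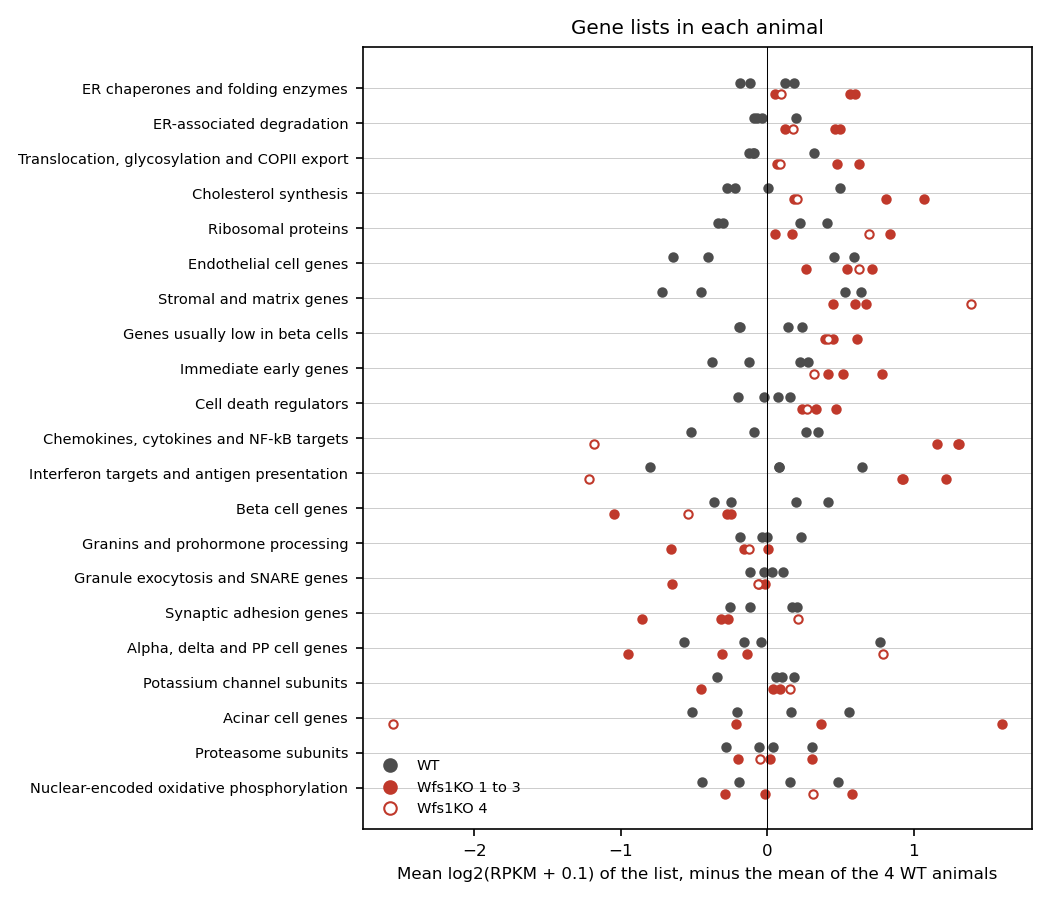
Mean log2(RPKM + 0.1) of the members of the gene lists shown, in each animal, minus the mean of the 4 WT animals, with WT in grey, Wfs1KO 1 to 3 in red and Wfs1KO 4 as open circles. The chemokine and interferon lists place Wfs1KO 1 to 3 above and Wfs1KO 4 below every WT animal, and for immediate early genes, cell death regulators and genes usually low in beta cells all 4 Wfs1KO animals lie above the WT animals.

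Most beta cell genes had lower means in Wfs1KO islets. Of 27 genes 24 were lower and 3 higher, with a median log2 fold change of -0.54 (-0.50 without Wfs1KO replicate 4). An unadjusted p under 0.05 was reached by 5, all lower, beside 1.87% of all genes. None had an adjusted p under 0.2 by limma, and no member was separated between the genotypes. Slc30a8 (chromosome 15, 52295553 to 52335798), which encodes the zinc transporter of insulin granules, had 76.3, 69.1, 70 and 37.2 RPKM in the WT and 13.3, 17.3, 16.4 and 53.9 RPKM in the Wfs1KO animals. Wfs1KO replicates 1 to 3 were below every WT animal and replicate 4 lay among them, with a log2 fold change of -1.51 (SE 0.40, adjusted p = 0.754). Without replicate 4 the log2 fold change was -1.96 (adjusted p = 0.0158). Slc2a2, the glucose transporter GLUT2, had 7.81, 3.37, 11.7 and 8.05 RPKM in WT and 3.03, 4.34, 2.5 and 4.11 RPKM in Wfs1KO islets, a log2 fold change of -1.03 (adjusted p = 0.87). Kcnj11, the pore of the ATP-sensitive potassium channel, had 19.5, 26.6, 15.9 and 17.1 RPKM in WT and 12.2, 10.7, 9.75 and 17.5 RPKM in Wfs1KO islets, a log2 fold change of -0.66 (adjusted p = 0.901). Of its partners in insulin secretion chosen after their values were seen, Abcc8 (the sulfonylurea receptor) had a log2 fold change of -0.54, G6pc2 (an islet glucose-6-phosphatase) of -0.79, Glp1r (the receptor of GLP-1) of -0.59 and Ucn3 (a marker of mature beta cells) of -0.75, all with overlap between the groups. The transcription factor genes Nkx6-1 and Pdx1 had log2 fold changes of 0.55 and 0.23. Pdx1 had 10.02, 11.9, 5.29 and 11.3 RPKM in WT and 15.3, 8.27, 4.97 and 21.3 RPKM in Wfs1KO islets, and its value was -0.10 without Wfs1KO replicate 4. The mean log2 level of the list was lowest in Wfs1KO replicate 3, at -1.05 from the WT mean, the animal with the highest acinar sum. Replicate 4 lay at -0.54, while replicates 1 and 2, at -0.28 and -0.25, lay within the WT range of -0.36 to 0.41, and with the acinar covariate the median was -0.56. WT animals varied widely in beta cell transcripts too, and WT replicate 2 had lower Ins1 and Ins2 than Wfs1KO replicates 1 and 2.

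Genes of prohormone processing and of granule release had means on both sides of WT, more of them lower. Of 16 granins and processing genes 10 were lower (median -0.26), and of 36 exocytosis and SNARE genes 22 (median -0.13), with 3 and 6 lower at an unadjusted p under 0.05, beside 1.87% of all genes. Of all genes tested 6129 of 13357 were lower, and no member of either list had an adjusted p under 0.2 by limma. Pcsk6, a proprotein convertase, had 8.9, 9.48, 7.47 and 8.22 RPKM in WT and 5.36, 3.99, 3.97 and 3.59 RPKM in Wfs1KO islets. The groups did not overlap, with a log2 fold change of -1.004 (SE 0.23, adjusted p = 0.457). Pcsk1, the convertase that begins the cleavage of proinsulin, had 44.5, 12.6, 15.8 and 31.4 RPKM in WT and 13.5, 18.4, 10.2 and 9.26 RPKM in Wfs1KO islets, and its log2 fold change was -0.89 (adjusted p = 0.901) with overlap. Syt5 and Syt9, calcium sensors of granule fusion, had log2 fold changes of -1.10 and -0.88 (adjusted p = 0.811 and 0.901). Stx1a, a SNARE protein of the plasma membrane, had 3.18, 4.19, 2.8 and 3.31 RPKM in WT and 2.56, 1.95, 1.79 and 1.17 RPKM in Wfs1KO islets without overlap and a log2 fold change of -0.85 (adjusted p = 0.901). In the exocytosis list Wfs1KO replicate 3, which had the highest acinar sum, lay -0.65 from the WT mean on the log2 scale, whereas the other Wfs1KO animals lay -0.06, -0.01 and -0.07 from it. The part of acinar RNA in that value was not tested. Nnat, a small ER membrane protein of beta cells that aids signal peptide cleavage of proinsulin, was higher instead, with 3.74, 3.39, 4.5 and 2.82 RPKM in WT and 6.68, 5.07, 7.23 and 5.98 RPKM in Wfs1KO islets, a log2 fold change of 0.78 (adjusted p = 0.839) without overlap. Ppp1r1a (chromosome 15, 103530279 to 103538003), an inhibitor of protein phosphatase 1 that is abundant in beta cells, had 27, 14.6, 20.6 and 14.3 RPKM in the WT and 8.5, 7, 5.82 and 4.67 RPKM in the Wfs1KO animals and a log2 fold change of -1.53 (SE 0.27, adjusted p = 0.164). No Wfs1KO animal reached the lowest WT value.

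Most genes of neuron-like membrane adhesion that beta cells share had lower means in Wfs1KO islets. Of 25 synaptic adhesion genes 21 were lower and 4 higher, with a median log2 fold change of -0.24 (-0.55 without Wfs1KO replicate 4). An unadjusted p under 0.05 was reached by 1 higher and 4 lower, beside 3.54% and 1.87% of all genes. The mean log2 level of the list, relative to the WT mean, was -0.12, 0.20, 0.17 and -0.25 in WT. It was -0.32, -0.27, -0.85 and 0.21 in the Wfs1KO animals, so that Wfs1KO replicate 4 was the highest of all. Cntnap2, an adhesion protein of axons, had 6.41, 2.47, 5.25 and 5.42 RPKM in WT and 2.16, 2.26, 1.73 and 1.27 RPKM in Wfs1KO islets and a log2 fold change of -1.30 (adjusted p = 0.754), without overlap. Ntm and Cdh8, adhesion genes of neurons that are not on this list and were named for the size of their difference, had log2 fold changes of -1.74 and -1.41. The list member Cadm3 differed in direction, with 0.79, 1.01, 0.82 and 1.53 RPKM in WT and 2.12, 1.55, 2.72 and 2.9 RPKM in Wfs1KO islets. The groups did not overlap for Cadm3 either.

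Most genes that beta cells usually keep low had higher means in Wfs1KO islets, with none at an adjusted p under 0.2 by limma. Of 22 such genes 19 were higher, with a median of 0.60 (0.50 without Wfs1KO replicate 4). An unadjusted p under 0.05 was reached by 6, all higher, beside 3.54% of all genes. Aldh1a3, an aldehyde dehydrogenase seen in beta cells that lose their identity, had 2.83, 0.75, 0.8 and 3.7 RPKM in WT and 4.94, 5.14, 2.76 and 5.86 RPKM in Wfs1KO islets, a log2 fold change of 1.43 (adjusted p = 0.87). Smad3, a mediator of TGF-beta signals, had 5.02, 5.71, 9.43 and 6.55 RPKM in WT and 12.6, 12.7, 13.9 and 8.17 RPKM in Wfs1KO islets. Slc16a1, a lactate and pyruvate carrier, had 3.14, 4.66, 5.38 and 3.71 RPKM in WT and 7.48, 6.23, 6.31 and 5.78 RPKM in Wfs1KO islets, without overlap and with a log2 fold change of 0.62 (adjusted p = 0.901). Ldha, the lactate dehydrogenase subunit, had 54.4, 55.8, 104 and 81.4 RPKM in WT and 149, 157, 213 and 43.2 RPKM in Wfs1KO islets, with Wfs1KO replicate 4 the lowest of all 8. Many of these genes are expressed by acinar, ductal and stromal cells as well. The mean log2 level of the list lay above every WT animal in all 4 Wfs1KO animals.

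Most transcripts of vessels and connective tissue had higher means in Wfs1KO islets, with none of those listed at an adjusted p under 0.2 by limma (1 stromal gene after median-of-ratios scaling). Of 16 endothelial genes 14 were higher (median 0.53), and of 25 stromal and matrix genes 23 (median 0.91, 0.70 without Wfs1KO replicate 4). Among them 3 and 5 were higher at an unadjusted p under 0.05, beside 3.54% of all genes. Cdh5 (chromosome 8, 104101625 to 104144511), the cadherin of endothelial junctions, had 7.61, 17.9, 14.1 and 7.95 RPKM in the WT and 28.98, 25.6, 28.3 and 31.2 RPKM in the Wfs1KO animals. The groups did not overlap, with a log2 fold change of 1.35 (SE 0.28, adjusted p = 0.289). Pecam1, which defines endothelium, had 6.69, 16.1, 13.7 and 6.07 RPKM in WT and 13.9, 16.5, 15.5 and 12.1 RPKM in Wfs1KO islets, with overlap and a log2 fold change of 0.56 (adjusted p = 0.93). Dcn, the matrix proteoglycan decorin, had 15.8, 22.1, 28.8 and 13.9 RPKM in WT and 41.96, 49.8, 43.9 and 73.1 RPKM in Wfs1KO islets. This gave a log2 fold change of 1.39 (SE 0.27, adjusted p = 0.208), again without overlap. Col1a1, the chain of type I collagen, had 1.43, 2.93, 5.7 and 0.3 RPKM in WT and 3.53, 5.48, 2.12 and 14.6 RPKM in Wfs1KO islets and a log2 fold change of 1.48 (adjusted p = 0.916). The sum of the endothelial genes was 58.3, 127, 118 and 46.7 RPKM in WT and 131, 139, 109 and 135 RPKM in Wfs1KO islets, and that of the stromal genes 197, 428, 464 and 229.5 and 436, 483, 365 and 775 RPKM. WT replicates 2 and 3 thus lay within the Wfs1KO range in both sums, and WT replicates 1 and 4 below it. Leukocyte transcripts were sparse, with Ptprc between 0.63 and 1.52 RPKM, and 15 of 18 immune cell genes were higher (median 0.25), with 0 at an unadjusted p under 0.05 by limma.

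Among the other endocrine cells, Ppy, the pancreatic polypeptide gene, had 6979, 8388, 3167 and 2557 RPKM in WT and 15527, 5351, 4231 and 18204 RPKM in Wfs1KO islets, with overlap and a log2 fold change of 0.94 (adjusted p = 0.966). Of 17 alpha, delta and PP cell genes 12 were lower, and 1 had an unadjusted p under 0.05. Acinar genes had a median log2 fold change of -0.15, which was 0.60 without Wfs1KO replicate 4, and the REG family, secreted lectins of acinar cells, had -1.97 and -0.63. Reg3b had 627, 426, 288 and 1121 RPKM in WT and 442, 45.99, 1271 and 4 RPKM in Wfs1KO islets, with the highest and lowest values in the Wfs1KO animals with the highest and lowest acinar sums. Ductal genes were evenly split, with 10 of 20 higher and 10 lower and a median of 0.06. At an unadjusted p under 0.05 2 were higher, beside 3.54% of all genes, and 1 did not overlap. That gene, Sox9, a ductal transcription factor, had 4.28, 4.2, 5.41 and 3.06 RPKM in WT and 6.66, 6.96, 7.15 and 6.97 RPKM in Wfs1KO islets, with a log2 fold change of 0.72 (adjusted p = 0.861). The ductal keratin Krt19 overlapped widely (37.5, 33.2, 48.2 and 72.99 RPKM in WT and 62.4, 22.8, 83.9 and 15.8 RPKM in Wfs1KO islets).

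Immediate early genes, which respond within minutes to calcium, growth factors or stress, mostly had higher means in Wfs1KO islets, and Npas4 had a lower one. Of 33 genes 31 were higher (median 0.50). An unadjusted p under 0.05 was reached by 9 higher and 1 lower, beside 3.54% and 1.87% of all genes. Egr1, a zinc finger transcription factor, had 40.7, 97.8, 81.6 and 62.3 RPKM in the WT and 222, 133, 178 and 153 RPKM in the Wfs1KO animals. The groups did not overlap, with a log2 fold change of 1.33 (SE 0.29, adjusted p = 0.291). Fosl1, a member of the AP-1 family, had 4.12, 8.33, 14.6 and 8.37 RPKM in WT and 25.4, 27.2, 23.3 and 13.3 RPKM in Wfs1KO islets. Egr2, a relative of Egr1, had 2.06, 3.85, 2.18 and 3.29 RPKM in WT and 7.53, 9.02, 11.3 and 3.66 RPKM in Wfs1KO islets. In both only Wfs1KO replicate 4 lay within the WT range, and the log2 fold changes were 1.40 and 1.38. Gadd45b and Kdm6b, which are not on this list and were chosen after their values were seen, are a stress-induced growth arrest gene and a histone demethylase gene. Gadd45b had 21.8, 32.4, 28.5 and 22.6 RPKM in WT and 72.3, 42.1, 63.97 and 56.7 RPKM in Wfs1KO islets. Kdm6b had 12.3, 15.1, 11.8 and 13.5 RPKM in WT and 41.1, 34.1, 27.2 and 19.2 RPKM in Wfs1KO islets. Neither overlapped, and the log2 fold changes were 1.15 (adjusted p = 0.212) and 1.15 (adjusted p = 0.289). Npas4, which in neurons and beta cells is switched on by calcium entry, was lower, with 1.83, 3.32, 9.25 and 2.75 RPKM in WT and 1.23, 0.49, 0.94 and 0.74 RPKM in Wfs1KO islets. The highest Wfs1KO value was below the lowest WT value, and the log2 fold change was -2.001 (adjusted p = 0.67).

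Chemokines and interferon targets split the Wfs1KO animals. Of 40 chemokines, cytokines and NF-kB targets 36 were higher with a median of 0.53, and 3 had an unadjusted p under 0.05, with none at an adjusted p under 0.2 by limma. Without Wfs1KO replicate 4 the median was 1.11, 30 genes had an unadjusted p under 0.05 and 17 an adjusted p under 0.2. In that fit 10.1% and 1.46% of all genes passed these thresholds. The summed level of the list was 2023, 1255, 3222 and 2699.7 RPKM in WT and 5334, 4814, 5307 and 597 RPKM in Wfs1KO islets. Cxcl2, which attracts neutrophils, had 13.7, 12.6, 32.1 and 26.4 RPKM in WT and 88.3, 81.7, 155 and 5.58 RPKM in Wfs1KO islets. Wfs1KO replicates 1 to 3 were above and replicate 4 below every WT animal, and the log2 fold change was 1.35 (adjusted p = 0.931) with all animals and 2.40 (adjusted p = 0.0231) without replicate 4. Ccl2, the monocyte attractant, had 125, 91, 226 and 231 RPKM in WT and 537, 383, 535 and 25.9 RPKM in Wfs1KO islets, with the same order. Csf3, the granulocyte growth factor, had 4.91, 7.66, 6.76 and 10.6 RPKM in WT and 36.2, 27.5, 55.02 and 12.2 RPKM in Wfs1KO islets. It was separated even with replicate 4, with a log2 fold change of 1.97 (SE 0.41, adjusted p = 0.289). Of 39 interferon targets and antigen presentation genes 35 were higher with a median of 0.50, and 0.95 without Wfs1KO replicate 4. Cxcl9, an interferon-gamma target counted here in the chemokine list, had 0.86, 0.46, 0.12 and 2.29 RPKM in WT and 15.4, 7.44, 10.5 and 0.62 RPKM in Wfs1KO islets. Gbp2, a guanylate-binding protein of the interferon list, had 16.3, 9.42, 15.02 and 20.7 RPKM in WT and 46.6, 51.7, 53.95 and 8.37 RPKM in Wfs1KO islets. Both overlapped, and their log2 fold changes were 2.91 and 1.12 (adjusted p = 0.825 and 0.901) with all animals. Without replicate 4 they were 3.88 and 1.77 (adjusted p = 0.0463 and 0.0231). Tap1, the peptide transporter of antigen presentation, had 5.19, 4.48, 4.39 and 8.43 RPKM in WT and 15.5, 10.8, 12.4 and 8.19 RPKM in Wfs1KO islets. Wfs1KO replicate 4 had the lowest acinar sum, a depth of 3248000 reads and the lowest immune cell sum, at 92.7 RPKM against 150.1 to 372.7 RPKM elsewhere, and the part of these in the split was not tested.

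Without Wfs1KO replicate 4, 33 genes had an adjusted p under 0.05 by limma (0.247% of genes tested), 24 higher (0.18%) and 9 lower (0.0674%), and these included all 3 calls made with every animal. In 14 of the 33 genes replicate 4 lay beyond every WT animal on the same side as the other Wfs1KO animals, and in 19 it did not. Sprr1a, a cornified envelope protein induced by injury in several tissues, was in the second group, with 39.1, 34.7, 36.6 and 65.8 RPKM in the WT and 311, 377, 226 and 41.6 RPKM in the Wfs1KO animals. This gave a log2 fold change of 2.10 (adjusted p = 0.754) with all animals and 2.81 (adjusted p = 0.00443) without replicate 4. Fbp1, the gluconeogenic fructose-bisphosphatase, had 14.7, 17.6, 10.2 and 10.6 RPKM in WT and 1.88, 2.48, 1.29 and 13.3 RPKM in Wfs1KO islets, a log2 fold change of -2.76 (adjusted p = 0.00588) without replicate 4. With all animals Fbp1 overlapped and did not reach an adjusted p under 0.2 by limma. Penk, the enkephalin precursor, had 5.29, 4.79, 7.47 and 8.56 RPKM in WT and 24.03, 21.7, 25.2 and 3.84 RPKM in Wfs1KO islets. Cyp1a1, a detoxifying enzyme, had 4.02, 4.06, 6.73 and 2.56 RPKM in WT and 18.2, 22.02, 15.2 and 0.43 RPKM in Wfs1KO islets. Casp4, the caspase that senses bacterial lipopolysaccharide, had 9.36, 8.4, 16.5 and 8.05 RPKM in WT and 29.9, 30.3, 31.7 and 4.86 RPKM in Wfs1KO islets. For Penk, Cyp1a1 and Casp4 Wfs1KO replicate 4 was the lowest of the 8 animals, and for Fbp1 it lay within the WT range. Prss23, a secreted serine protease, had 4.59, 3.67, 5.27 and 5.57 RPKM in WT and 16.2, 16.4, 17.8 and 6.81 RPKM in Wfs1KO islets and was above every WT animal in replicate 4 as well. Fbp1, Penk, Cyp1a1, Casp4 and Prss23 were chosen after their values were seen.

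**Figure D4:**
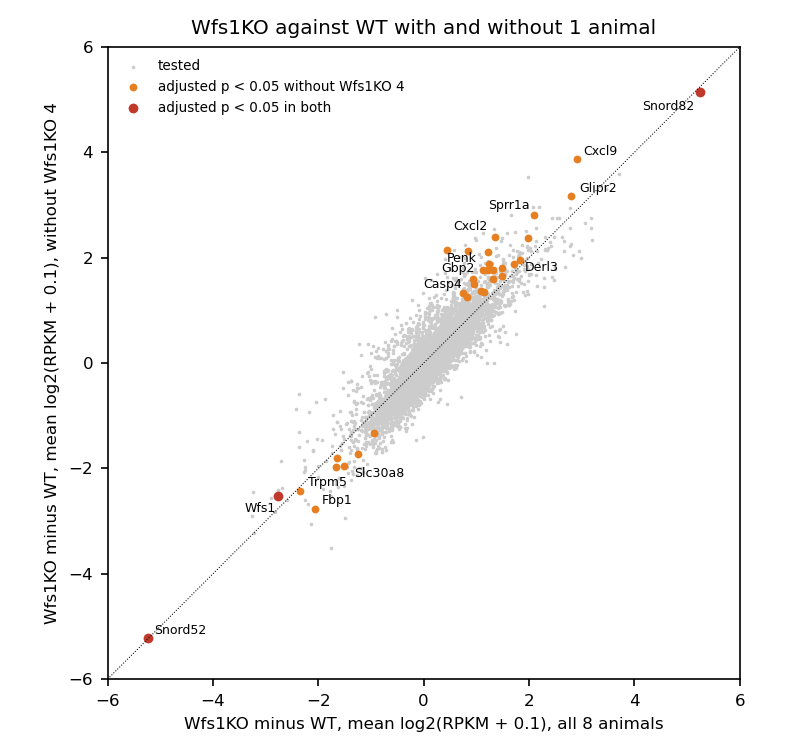
Wfs1KO minus WT in mean log2(RPKM + 0.1) with all 8 animals (horizontal) and without Wfs1KO 4 (vertical) for 13357 genes, with a dotted line of equal values. Most of the 33 genes at an adjusted p under 0.05 without Wfs1KO 4 lie farther from 0 than with it, among them Cxcl2, Sprr1a, Penk, Gbp2 and Casp4, while Wfs1, Snord52 and Snord82 pass in both.

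Regulators of cell death had higher means in part, with 19 of 27 higher, a median of 0.20 and 4 at an unadjusted p under 0.05, all higher, beside 54.1% of all genes higher and 3.54% higher at that p. Fas, the death receptor, had 5.61, 4.02, 3.79 and 5.36 RPKM in WT and 15.1, 12.9, 7.89 and 5.88 RPKM in Wfs1KO islets, a log2 fold change of 1.06 (adjusted p = 0.811). Tnfrsf10b, a receptor of TRAIL, had 9.08, 10.1, 13.7 and 10.6 RPKM in WT and 18.7, 25.1, 16.9 and 13.8 RPKM in Wfs1KO islets, a log2 fold change of 0.76 (adjusted p = 0.811). Both were without overlap. Bok, a BCL2 family member, and Cdkn1a, the cell cycle inhibitor p21, overlapped and had log2 fold changes of 1.10 and 0.55. The summed level of the list was 539.1 to 587.2 RPKM in WT and 696.2 to 785.5 RPKM in Wfs1KO islets, so that the ranges did not meet.

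Further genes were named singly, most of them for the size of their difference and most of low level. Spock1 was named for its low unadjusted p within the study's own list. The abundant genes given last were named for a low unadjusted p among genes of at least 100 RPKM. Cd81, Ccnd2 and Kcnj12 also belong to gene lists. Serpina7, Cpb2, Spock1 and Dpep1 are among the genes that the study itself names. Of genes described above, Wfs1, Glipr2, Trpm5, Gad1, Maob, Apoe, Egr1, Csf3, Cxcl9, Sprr1a and Prss23 are in its list for Wfs1KO against WT. Npas4 and Bhlha15 are in its list for Wfs1KO against Wfs1HZ. Both lists came from its edgeR test at a false discovery rate under 0.05, while the adjusted p here come from limma on RPKM. On the higher side, Serpina7, a carrier of thyroid hormone, had 6.72, 2.54, 0.72 and 2.76 RPKM in the WT and 19.1, 11.6, 9.19 and 7.54 RPKM in the Wfs1KO animals and a log2 fold change of 2.14 (SE 0.54, adjusted p = 0.67). Cpb2, a carboxypeptidase that restrains fibrinolysis, had 2.78, 1.81, 2.32 and 3.81 RPKM in WT and 9.52, 11.9, 9.9 and 7.19 RPKM in Wfs1KO islets and a log2 fold change of 1.83 (SE 0.29, adjusted p = 0.0956). Mmp13, a collagenase, and Phyhd1, a dioxygenase, had log2 fold changes of 1.85 and 1.81. The dipeptidase gene Dpep1 had a log2 fold change of 2.41. The olfactory receptor genes Olfr769, Olfr1016 and Olfr459 and the genes Cytl1, Mia1 and Klk4 were higher and listed at 0 in at least 1 WT animal, with at most 64.1 approximate reads in any WT or Wfs1KO library. All of them but Cytl1 averaged under 1 RPKM over the WT and Wfs1KO animals and passed the filter only through the heterozygous animals. Their highest values were in Wfs1HZ replicate 2, the library of lowest depth (2177000 reads), with 14.9 RPKM for Olfr769. On the lower side, Trf (chromosome 9, 103204001 to 103230444), the iron carrier transferrin, had 14.8, 9.33, 10.1 and 11.6 RPKM in the WT and 6.07, 2.92, 3.29 and 3.51 RPKM in the Wfs1KO animals and a log2 fold change of -1.55 (SE 0.28, adjusted p = 0.165). Spock1, a matrix proteoglycan, had 22.2, 14.1, 14.4 and 18.3 RPKM in WT and 4.45, 5.54, 4.52 and 7.36 RPKM in Wfs1KO islets and a log2 fold change of -1.65 (SE 0.25, adjusted p = 0.0956). Kcnj12, an inward rectifier channel, Angptl7, Clybl, Sfxn4, Nhej1, Traf5 and Olfr992 had log2 fold changes of -1.38 to -2.19 with adjusted p of 0.767 to 0.901. Kcnj12, Traf5 and Olfr992 also passed the filter only through the heterozygous animals. Among abundant genes, Cd81, a tetraspanin, had 149.9, 221, 197 and 115 RPKM in WT and 275, 255, 222 and 319.8 RPKM in Wfs1KO islets. Maged1, a MAGE family protein, had 355, 245, 219 and 243 RPKM in WT and 186, 156, 113 and 175 RPKM in Wfs1KO islets. Neither gene overlapped between the genotypes. Peg3, an imprinted zinc finger gene, had 278, 379.8, 268 and 281 RPKM in WT and 154, 202, 78.4 and 216 RPKM in Wfs1KO islets and a log2 fold change of -0.98 (adjusted p = 0.836). Peg3as is its antisense neighbour, with a log2 fold change of -0.94, and without the strand of counting the reads of the pair cannot be told apart. The ribonuclease gene Rnase4 and the cyclin gene Ccnd2 had log2 fold changes of -0.91 and -0.51.

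**Figure D5:**
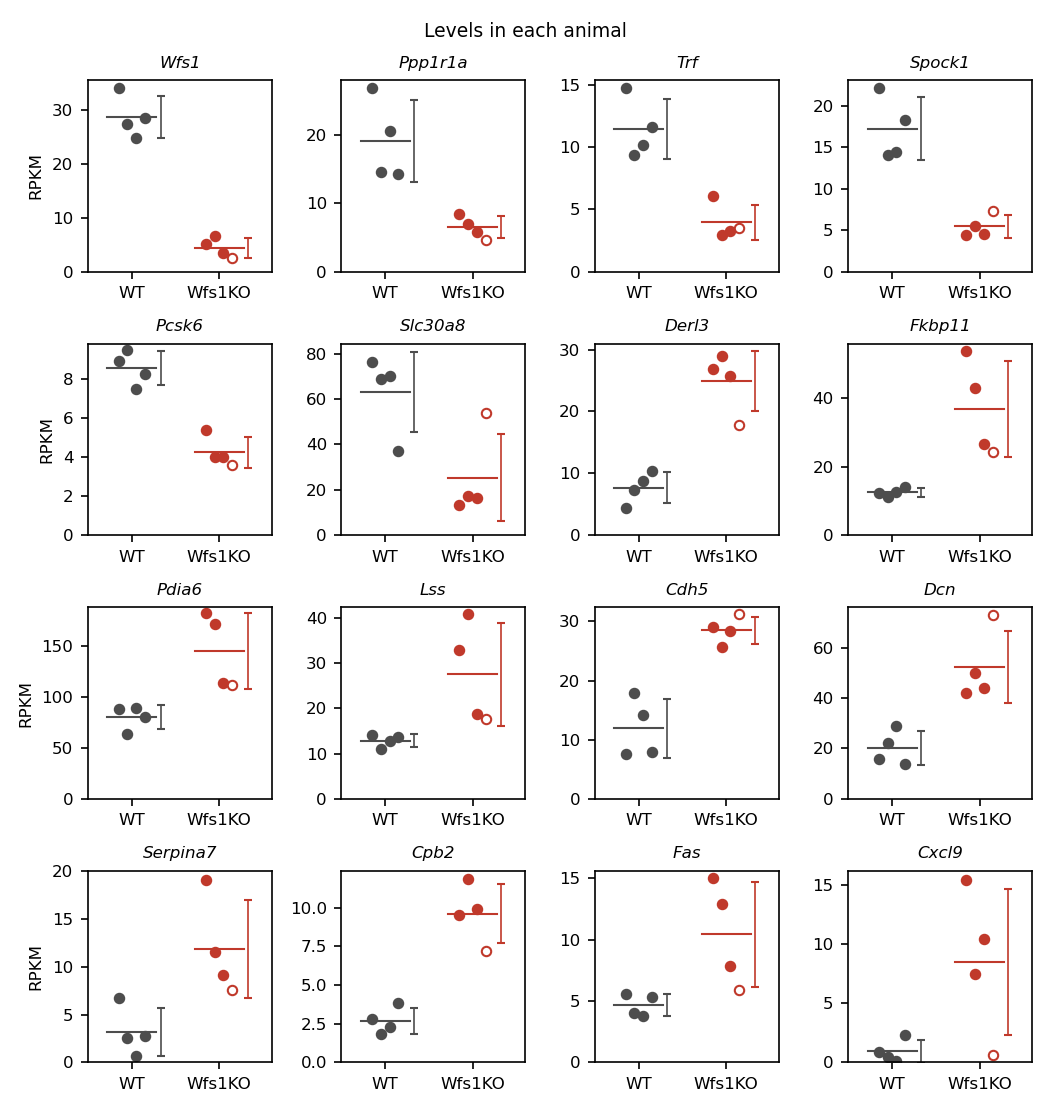
RPKM of 16 genes in each WT (grey) and Wfs1KO (red, Wfs1KO 4 open) animal, with the mean as a line and the SD of 4 animals as a bar. In 14 of the 16 genes the genotypes do not overlap, while Slc30a8 and Cxcl9 show Wfs1KO 4 among the WT animals.

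Genes near the targeted locus were counted separately. Within 5 Mb of Wfs1 on chromosome 5, 2 of 61 tested genes had an unadjusted p under 0.05, within 10 Mb 5 of 125 (4%) and within 20 Mb 5 of 198 (2.53%), beside 5.41% of all genes and 2.38% to 7.39% on single chromosomes. Wfs1 and Cytl1 made up the 2 within 5 Mb. Cytl1, which encodes a small secreted protein, lies 0.769 Mb from Wfs1 and had 0.81, 0.23, 0 and 0 RPKM in WT and 0.85, 1, 2.41 and 7.44 RPKM in Wfs1KO islets. This gave a log2 fold change of 3.17 (adjusted p = 0.754), and the WT values were low, with 2 animals listed at 0. The others within 10 Mb were Insig1, Cgref1 and Fndc4, all higher. Cgref1 had 2.47, 2.17, 2.56 and 3.74 RPKM in WT and 6.7, 4.13, 4.54 and 5.68 RPKM in Wfs1KO islets, without overlap. The animals did not overlap for 3 of 61 genes within 5 Mb (4.92%), with Wfs1 itself among them. Within 10 Mb they did not for 4 of 125 (3.2%) and within 20 Mb for 4 of 198 (2.02%), beside 2.79% of all genes.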

How the data were processed

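Islet RNA of each animal was sequenced as 1 SOLiD library with forward reads of 75 and reverse reads of 35 bases. LifeScope was used by the authors for mapping to mm10, and they deposited RPKM, rounded to 2 decimals, for 24078 entries (58 names occur more than once). The counting tool, its use of strand and the gene annotation are not given in the sources used here. The study tested differential expression with edgeR, which needs counts and was not repeated on RPKM. No column was left unmapped to an animal, and no pair of libraries held identical values.

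Values were analysed as log2(RPKM + 0.1) for the 13357 entries whose RPKM averaged 1 or more. Wfs1KO and WT were compared with limma 3.58.1 (variance trend, R 4.3.3) and Benjamini-Hochberg adjustment, on scripts tested on simulated data. Lists were counted, without set tests, and figures and counts were made with Python 3.11.15, numpy 2.4.6, pandas 2.3.3 and matplotlib 3.10.9. Animals are the replicates. With 4 against 4 animals the smallest two-sided exact permutation p is 0.0286. GENCODE M21 (GRCm38) positions matched 23439 entries (97.3%), 13144 of them tested. Depth was estimated from the RPKM steps of short RNA genes. Alternatives covered the pseudocount, filter, scaling, variance model, sample weights, replicate block, short genes and each animal left out.

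Members and lists were chosen with earlier results of these data known. Genes named by rule had an adjusted p under 0.05, or were the 12 highest and 12 lowest fold changes among separated protein-coding genes of at least 200 nt with an unadjusted p under 0.05 that are not in the study's list for Wfs1KO against WT (genes it names for other comparisons or in its text were kept), or the 5 higher and 5 lower genes with the lowest p among those of at least 100 RPKM, or the up to 4 members of a list with the lowest p, defining cell type genes, or genes within 5 Mb of Wfs1 with an unadjusted p under 0.05. Chaperone genes with the ER stress response element were added for their promoters. Fbp1, Penk, Cxcl2, Casp4, Gadd45b, Kdm6b, Glipr2, Apoe, Maob, Prss23, Fndc4, Cgref1, Ucn3, Glp1r, G6pc2, Abcc8, Pdx1, Nkx6-1, Ccl2, Cyp1a1, Ldha, Slc16a1 and Manf were chosen after their values were seen. Some genes that the rule names are not reported here.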

Additional observations from a re-analysis of the deposited data

Results flagged for a closer look

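A sample was marked where it lay far from the other 3 animals of its genotype, with a gap above Dixon's critical value for 4 samples. Chance marks about 1 in 20 groups, and 31 of 374 groups were marked (8.29%), 26 for single genes and 5 for gene lists. Wfs1KO replicate 4 was the marked sample 11 times.

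Wfs1KO replicate 4 was the lowest Wfs1KO animal for the interferon targets Tap2 (2.55 RPKM) and Gbp2 (8.37 RPKM), for Penk (3.84 RPKM), Casp4 (4.86 RPKM) and Ccl2 (25.9 RPKM), for Cyp1a1 (0.43 RPKM) and Prss23 (6.81 RPKM), and for the glycolytic regulator gene Pfkfb3 (10 RPKM). It was the highest for Olfr1016 (4.53 RPKM). Its mean log2 level was also the lowest of its group for the chemokine list (2.56) and the interferon list (2.88). Wfs1KO replicate 3 was lowest for the axon guidance receptor gene Robo1 (2.05 RPKM) and for the mean log2 level of the exocytosis list (3.69), and Wfs1KO replicate 2 was highest for G6pc2 (76.3 RPKM).

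Among WT animals, replicate 2 was lowest for Sdf2l1 (20.5 RPKM), Ero1lb (15.6 RPKM), Iigp1 (0.85 RPKM), Robo1 (3.61 RPKM) and Glipr2 (0.6 RPKM), and highest for Peg3 (379.8 RPKM) and Olfr769 (0.12 RPKM). Replicate 4 was lowest for Mcfd2 (20.1 RPKM), Slc30a8 (37.2 RPKM), Kcnma1 (7.2 RPKM) and Adm (0.45 RPKM), and highest for Reg2 (3509 RPKM) and for the mean log2 level of the REG family (8.89). Replicate 3 was lowest for Ddit4 (15.2 RPKM) and highest for the chaperone gene Hsp90b1 (1146 RPKM), and replicate 1 was lowest for Tap2 (1.96 RPKM) and highest for the mean log2 level of the translocation and export list (5.54).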

How the results depend on the processing

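The count of genes with an adjusted p under 0.05 (3 in the reported fit) was 1 with a pseudocount of 1, with all 12 samples in the fit or without genes under 200 nt, 0 without the filter on low values, 5 without a variance trend and 22 with sample weights. The count with an adjusted p under 0.2 (15) was 7 with a pseudocount of 0.01, 8 without the trend, 6 with all 12 samples and 273 with sample weights. At an unadjusted p under 0.05 the higher and lower counts (473 and 250) were 848 and 377 with a minimum mean of 0.1 RPKM and 878 and 414 without the filter, where more genes were tested, 297 and 159 with all 12 samples and 1170 and 555 with sample weights, and the lower count was 527 with median-of-ratios scaling and 564 with quantile normalization. Genes without overlap (373) numbered 594 and 607 with the lower minimum and without the filter, and 569 and 573 after those scalings. The causes were not tested.

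Leaving out 1 animal at a time gave 0 to 33 genes at an adjusted p under 0.05, 2 to 195 at an adjusted p under 0.2, 242 to 724 higher and 158 to 626 lower at an unadjusted p under 0.05, and 523 to 1291 without overlap. Other settings were chosen after the data were seen. Leaving out the lowest-depth library of each group gave 58 and 285 genes at the adjusted thresholds, 780 higher, 511 lower and 1957 without overlap. The acinar score as a covariate gave 13 and 60 genes and 547 lower. Counts without overlap rise by chance as animals are left out, so those here are not comparable with the 373 of all 8 animals. WT and Wfs1KO animals share replicate numbers, but deviations of same-numbered animals correlated at 0.11, -0.16, 0.08 and -0.24, and no source says that a number marks a litter or day. With the replicate number as a block 0 genes had an adjusted p under 0.05 (the lowest was 0.0892 for Wfs1) and 1 had an adjusted p under 0.2.

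Of 153 genes followed across the alternatives, 7 changed sign in at least 1 of them, 15 of 3364 values in all. Log2 fold changes turned to 0.31 for Ins1 with sample weights and to 0.26 for Gcg and -0.038 for Sst after quantile normalization. With 1 animal left out they ranged from -0.72 to 0.059 for Gcg, -0.063 to 0.45 for Sst, -0.90 to 0.58 for Cpa1, -0.69 to 0.11 for Krt19, -0.0040 to 0.26 for Canx and -0.098 to 0.59 for Pdx1, with the turn of sign without WT replicate 2 for Gcg, without Wfs1KO replicate 1 for Canx, without WT replicate 3 (-0.035) for Pdx1, and without Wfs1KO replicate 4 for Sst, Cpa1, Krt19 and Pdx1. Without the lowest-depth library of each group Sst was at -0.20, Cpa1 at 0.85, Krt19 at 0.13 and Pdx1 at -0.36. Cpa1 was at 0.13 with sample weights. Depth limited genes of low level most, since 3 reads on a transcript of 2 kb stood for up to 0.523 RPKM.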

Other observations

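Energy metabolism and protein turnover gave few genes at an unadjusted p under 0.05, which 5.41% of all genes reached. Of 80 nuclear genes of oxidative phosphorylation 58 were higher in Wfs1KO islets, with a median log2 fold change of 0.15 and 1 gene in each direction at an unadjusted p under 0.05, while 17 of 37 proteasome subunits were higher, with a median of -0.01 and 0 at an unadjusted p under 0.05 by limma. Among 32 glycolysis genes and hypoxia targets 21 were higher, with a median of 0.13, or 0.28 without Wfs1KO replicate 4. Adm, a vasoactive peptide induced by low oxygen, had 1.31, 1.37, 1.23 and 0.45 RPKM in WT and 3.08, 3.63, 7.59 and 1.75 RPKM in Wfs1KO islets. Aldoc, an aldolase, had 7.2, 6.34, 4.81 and 8.32 RPKM in WT and 6.1, 4.37, 3.19 and 2.84 RPKM in Wfs1KO islets. Antioxidant and metallothionein genes had a median of 0.04 over 35 genes. Mitochondrially encoded genes had 0 entries in the table.

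Ion channels were divided. Of 37 potassium channel subunits 17 were higher and 20 lower, with 1 higher and 4 lower at an unadjusted p under 0.05, and of 29 calcium channel and ER calcium genes 14 were higher and 15 lower, with 2 lower at that threshold. The shares of all genes at that threshold were 3.54% higher and 1.87% lower. Kcnma1, the pore of the large-conductance calcium-activated potassium channel, had 11.5, 10.8, 11.2 and 7.2 RPKM in WT and 4.86, 6.54, 4.47 and 8.79 RPKM in Wfs1KO islets. Atp2a3, the ER calcium pump SERCA3, had 23.2, 13.4, 12.9 and 16.5 RPKM in WT and 13.3, 10.9, 7.05 and 10.96 RPKM in Wfs1KO islets and a log2 fold change of -0.63 (adjusted p = 0.901). Clock genes had 14 of 19 higher, cell cycle genes 9 of 18, small nucleolar RNAs 26 of 53 and glial genes 3 of 5. Red cell genes had a median of -1.72 over 4 genes, 3 of them lower at an unadjusted p under 0.05, and the beta globin copies share sequence. Their summed level was low and overlapped, at 4.33 to 10.4 RPKM in WT and 4.41 to 6.5 RPKM in Wfs1KO islets. The 19 tested genes that the study itself listed were chosen on these animals, and 11 were higher and 8 lower here at an unadjusted p under 0.05.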
